A study of Canis lupus familiaris with 6 samples.

Results

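Matricellular glycoproteins are secreted proteins that sit in the matrix around cells and tune how cells attach, spread and respond to growth factors. A set of 10 genes for such proteins or related matrix proteins was described here in dog fat precursor cells. The genes were POSTN, TGFBI, FN1, TNC, THBS1, THBS2, SPARC, VCAN, CCN1 and CCN2. They were taken by name from the 23299 genes of the deposited table, and all 10 were found. The set was chosen by the measured difference of POSTN between the groups, seen in earlier results of these data, together with genes of related function. Differences of the members between the groups are therefore given as a description, with no test.

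The libraries came from canine adipose-derived stem cells, grown from dog fat and fibroblast-like in culture, in a study of bisphenol A (BPA) and obesity in dogs. After 2 days of culture all cells received an adipogenic medium for 14 days, with the glucocorticoid dexamethasone at 1 µM, the PPARG-activating drug rosiglitazone at 200 nM and insulin at 10 µg/mL. In 3 libraries, called control, the cells also received the solvent DMSO, and in 3 they received 1 µM BPA, a plastic monomer that binds oestrogen receptors. Whether the replicates were separate cultures or dogs is not stated in the labels, so their spread may be technical.

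Adipogenic medium acts on cells that already make a fibroblast matrix, and the matrix changes as fibroblast-like precursors turn into lipid-storing cells. POSTN (periostin) and its relative TGFBI are secreted proteins with fasciclin domains, typically induced by TGF-beta. FN1 (fibronectin) is the fibrillar adhesion protein on which other matrix proteins assemble, and periostin binds it, tenascin and collagen. The thrombospondins bind CD36 and CD47 on cells, THBS1 can activate latent TGF-beta, and CCN1 and CCN2 are common targets of the YAP and TEAD transcription factors. SPARC, a collagen-binding protein, is known to restrain fat cell formation.

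Values are TPM, the transcript abundance of a gene per length and scaled to a library total of 1000000, so levels can be compared between genes. A difference is BPA minus control on the log2(TPM + 1) scale. The depth behind each value is unknown. The table holds 1 value per gene, so splice forms cannot be told apart; POSTN has 7 transcript models in the RefSeq gene table. In bulk RNA, fewer cells of a type and less RNA per cell cannot be told apart.

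The main axis of variation between the libraries did not follow the groups. A first principal component over the 12277 tested genes (mean log2(TPM + 1) of at least 1) took 79.8% of the variance, with BPA replicate 3 at 61.1, control replicate 2 at 11.3 and the other 4 between -29.9 and -0.10. A second component, with 7.44%, held the BPA libraries at 1.68 to 14.6 and the control libraries at -11.6 to -5.62, without overlap. Of the fixed adipocyte markers 7 of 8 averaged at least 1 TPM, PPARG being the exception at 0.099 to 0.357 TPM. Of the stromal markers 5 of the 7 analysed did, with NT5E and CD34 at 0.501 TPM or less, and THY1 was not analysed here. None of the 6 endothelial markers reached that level, while 3 of the 5 leukocyte markers analysed did: CD14 at 20.2 to 41.5 TPM, CD68 at 2.78 to 8.10 TPM and CSF1R at 1.67 to 2.63 TPM, with PTPRC at 0.0066 TPM or less. By limma with Benjamini-Hochberg adjustment 0 of the 12277 tested genes (0%) passed 0.05, with a smallest adjusted p of 0.901. At an unadjusted p under 0.05, 1.87% were higher and 1.70% lower with BPA.

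POSTN was the member that separated the groups. Control replicates 1, 2 and 3 held 414, 337 and 381 TPM, and the BPA replicates, here and throughout in the same order, 292, 246 and 180.03 TPM. Every BPA library lay below every control library, with BPA replicate 3 lowest and control replicate 1 highest. The means were 240 ± 56.4 TPM with BPA and 377 ± 38.6 TPM in control (SD, n = 3), a difference of -0.68 (SE 0.20). POSTN was 1 of the 9 tested members without overlap between the groups, beside 3.98% of all tested genes that lay lower without overlap and 5.38% that lay higher. Nothing is read from that count, since POSTN was chosen for this difference. The size of the difference ran from -0.83 to -0.48 when single libraries were left out, and was -0.48 (SE 0.12) without BPA replicate 3. Its sign could not turn there, since no library of one group reached into the other.

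**Figure D1:**
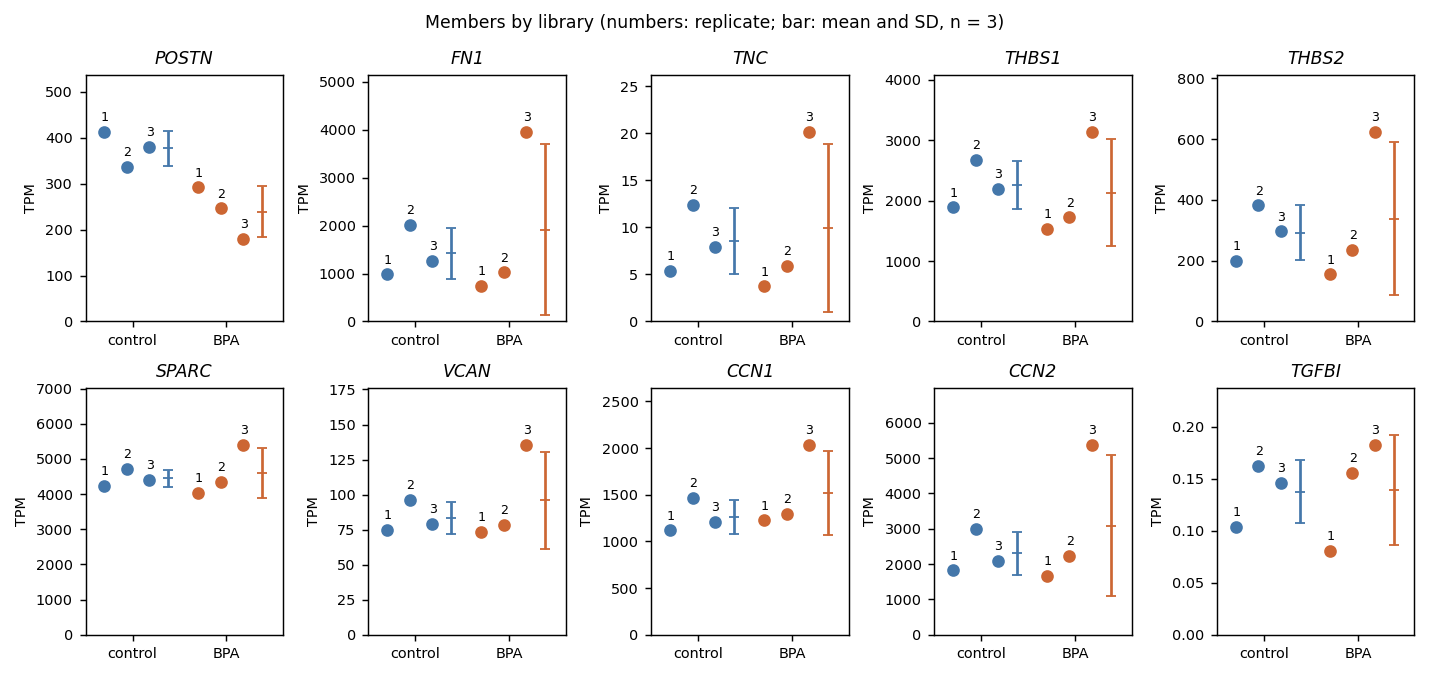
TPM (vertical axis, from 0) of each of the 10 genes in the 3 control (blue) and 3 BPA (orange) libraries. Numbers are replicates and bars are the mean with SD (n = 3). POSTN does not overlap between groups, while in the other 9 genes BPA replicate 3 is highest and the groups overlap.

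TGFBI, the other fasciclin protein, was close to the floor of the table. It was at 0.104, 0.162 and 0.146 TPM in control and at 0.0805, 0.155 and 0.183 TPM with BPA. The groups overlapped, and its mean was too low for the test. POSTN thus averaged 308 TPM over the 6 libraries and TGFBI 0.139 TPM.

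FN1 spread more than almost any tested gene. Its values were 981, 2016 and 1271 TPM in control and 751, 1025 and 3966 TPM with BPA. BPA replicate 3 was the highest library and BPA replicate 1 the lowest, so both ends of the range lay in the BPA group. The highest library held 5.28 times the lowest, and the log2 range of 2.40 was wider than that of 97.8% of tested genes. The group difference was 0.09 (SE 0.66).

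TNC, the tenascin that loosens adhesion to fibronectin, was a gene of low level with the same spread. It was at 5.41, 12.4 and 7.91 TPM in control and 3.73, 5.88 and 20.2 TPM with BPA, a 5.41-fold range from BPA replicate 1 to BPA replicate 3. The difference was -0.05 (SE 0.60). VCAN (versican), a chondroitin sulphate proteoglycan that binds hyaluronan, was at 74.9, 96.0 and 78.8 TPM in control and 73.5, 78.4 and 136 TPM with BPA. Apart from BPA replicate 3 its BPA values lay within or just under the control range, and the difference was 0.15 (SE 0.26).

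The thrombospondins were both abundant. THBS1 was at 1887, 2675 and 2194 TPM in control and 1529, 1723 and 3144 TPM with BPA. BPA replicates 1 and 2 lay below all control libraries and BPA replicate 3 above them, so the difference of -0.14 (SE 0.30) averaged over opposite positions. THBS2 was at 199, 382 and 296 TPM in control and 155, 235 and 625 TPM with BPA, with a difference of 0.01 (SE 0.55). The ratio of THBS1 to THBS2 was 9.47, 7.01 and 7.41 in control and 9.87, 7.32 and 5.03 with BPA, lowest where both genes were highest.

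SPARC was the most abundant member and the steadiest. It was at 4244, 4705 and 4398 TPM in control and 4040.2, 4353 and 5401 TPM with BPA. Its highest library held 1.34 times its lowest, and its log2 range of 0.42 was wider than that of only 36.0% of tested genes. The groups overlapped, with a difference of 0.04 (SE 0.14).

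Both CCN genes, secreted regulators of adhesion and matrix synthesis, were abundant. CCN1 was at 1118, 1468 and 1205 TPM in control and 1226, 1291 and 2036 TPM with BPA, a difference of 0.23 (SE 0.23). Control replicate 1 was lowest, which set CCN1 apart from the members whose lowest library was BPA replicate 1. CCN2 was at 1820.4, 2988 and 2098 TPM in control and 1663, 2234 and 5376 TPM with BPA, a difference of 0.27 (SE 0.46). The 2 genes did not keep a constant ratio: CCN2 over CCN1 was 1.63, 2.03 and 1.74 in control and 1.36, 1.73 and 2.64 with BPA.

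By mean level over the 6 libraries the order was SPARC (4523 TPM), CCN2 (2697), THBS1 (2192), FN1 (1668), CCN1 (1391), THBS2 (315), POSTN (308), VCAN (89.5), TNC (9.25) and TGFBI (0.139). Neighbours among the upper 5 overlapped in range. SPARC exceeded CCN2 in 6 of 6 libraries, but in BPA replicate 3 by a ratio of only 1.00. CCN2 exceeded THBS1 in 4 of 6 libraries, THBS1 exceeded FN1 in 5 of 6 and FN1 exceeded CCN1 in 3 of 6. CCN1 lay above THBS2 in every library with no overlap of ranges, as did POSTN above VCAN, VCAN above TNC and TNC above TGFBI. The place of POSTN depended on the library: THBS2 exceeded it in 2 of 6, control replicate 2 and BPA replicate 3.

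The tested members other than POSTN varied together across libraries. In each of those 8, control replicate 2 was the highest control and control replicate 1 the lowest, and BPA replicate 3 was the highest BPA library and BPA replicate 1 the lowest. POSTN ran in the exact reverse of this order in both groups. These orders were common in the table: 26.8% of tested genes had that of the 8 members and 19.7% that of POSTN. BPA replicate 3 was the highest library for 8 of 9 tested members, beside 38.9% of all tested genes.

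**Figure D2:**
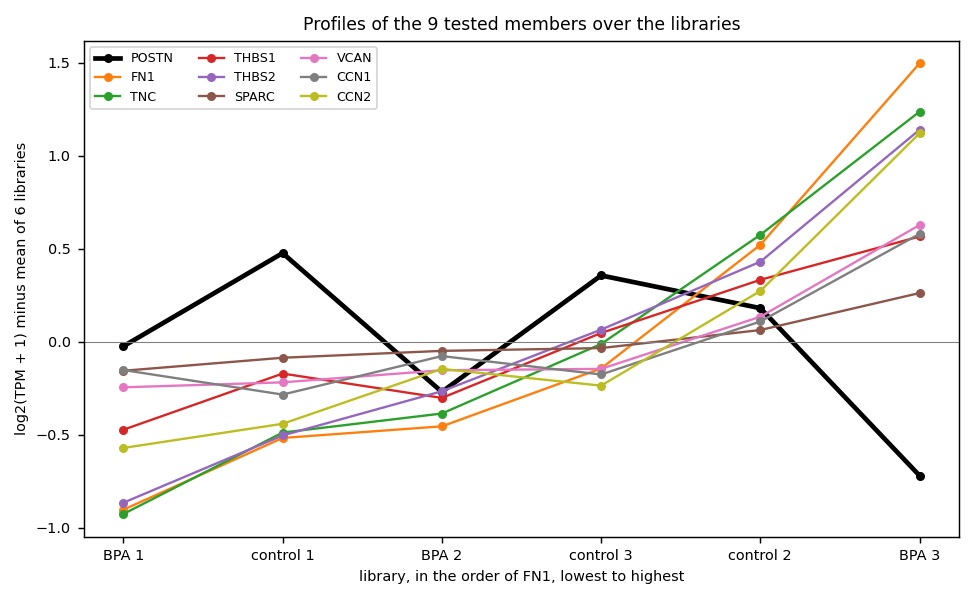
log2(TPM + 1) minus the gene's mean over the 6 libraries (vertical axis) for the 9 tested members, with libraries ordered by their FN1 level. POSTN (black) is lowest in BPA replicate 3, where the other 8 are highest.

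The ratio of FN1 to POSTN shows the opposed course without any scaling between libraries. Its values were 2.37, 5.98 and 3.34 in control and 2.57, 4.16 and 22.03 with BPA. BPA replicate 3 stood far above the other 5, among which the groups overlapped. POSTN made up 3.85%, 2.30% and 3.19% of the summed TPM of the 10 members in control and 3.002%, 2.20% and 0.862% with BPA. The 10 members together took 1.07%, 1.47% and 1.19% of all TPM in control and 0.973%, 1.12% and 2.09% with BPA. That share averaged 1.39 ± 0.61% with BPA and 1.25 ± 0.20% in control (SD, n = 3), and 1.05% over the BPA libraries without replicate 3.

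Whether FN1, THBS2, SPARC, VCAN and CCN2 lay above or below control depended on BPA replicate 3. TNC and THBS1 lay below and CCN1 above with and without that library. With all libraries 6 of the 9 tested members had a BPA mean above control, with a median difference of 0.04 beside 0.03 over all tested genes. Without BPA replicate 3, 8 of 9 lay below, with a median of -0.46 beside 0.02 over all tested genes. FN1 moved from 0.09 to -0.63 (SE 0.33), TNC from -0.05 to -0.68 (SE 0.35) and THBS2 from 0.01 to -0.56 (SE 0.33). THBS1 then lay lower without overlap, at -0.46 (SE 0.16), as did POSTN, beside 6.55% of all tested genes lower and 14.5% higher without overlap among those 5 libraries. CCN1 was at 0.0028 (SE 0.13). Scaling also set some of these signs: with median centring SPARC and THBS2 lay below control, and with a pseudocount of 5 TNC lay above. Leaving out control replicate 1 put FN1 and THBS2 below control, and leaving out BPA replicate 1 put all but POSTN above. TNC also lay above control without control replicate 2 (0.23) and without BPA replicate 2 (0.13). Removing BPA replicate 3 and control replicate 2 together, chosen after seeing the data, left POSTN at -0.56 (SE 0.11), THBS1 at -0.33 (SE 0.11) and CCN1 at 0.12 (SE 0.07), each without overlap among the remaining 4 libraries. Among those 4 libraries 11.6% of all tested genes lay lower and 23.0% higher without overlap, so 3 of 9 members is near the background.

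**Figure D3:**
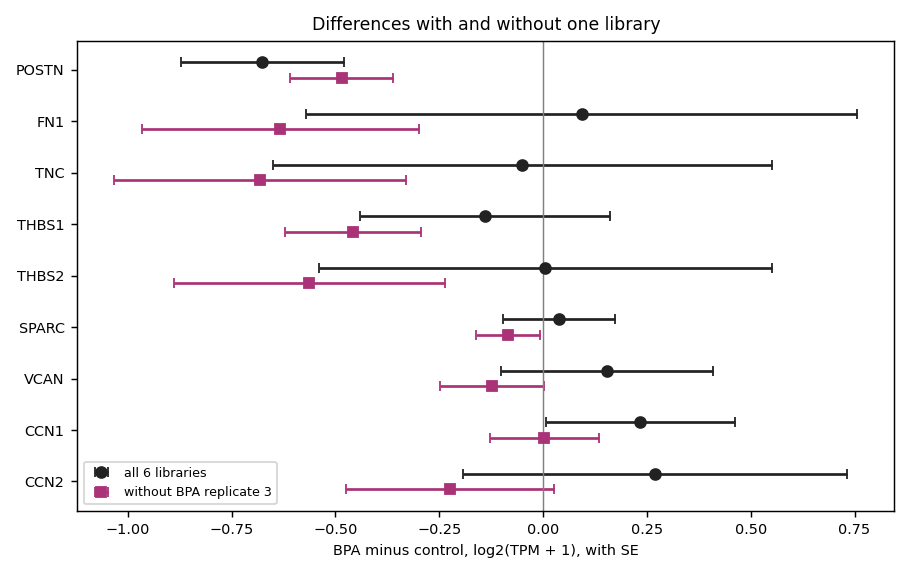
BPA minus control difference in log2(TPM + 1) (horizontal axis) with its SE for the 9 tested members, with all 6 libraries (circles) and without BPA replicate 3 (squares). POSTN lies left of 0 in both, and FN1, THBS2, SPARC, VCAN and CCN2 change sides.

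Marker levels of several cell types differed between libraries or groups. The 7 stromal markers analysed summed to 5279 to 10717 TPM in control and to 6203 to 26851 TPM with BPA, a sum carried by COL1A1, type I collagen. COL1A1 was at 2170, 8114 and 3903 TPM in control and 2398, 4330 and 24502 TPM with BPA, in the library order of FN1 within each group. Stromal markers did not run together. LUM (lumican) had the reverse order, at 3007, 2431 and 2636 TPM in control and 3675, 2834 and 2005 TPM with BPA, and PDGFRA lay higher with BPA without overlap, at 0.49 (SE 0.16). The 5 smooth muscle markers analysed summed to 9709 to 10887 TPM in control and 8452 to 10470 TPM with BPA. The 8 adipocyte markers summed to 609 to 720 TPM in control and 636 to 898 TPM with BPA, a sum carried by LPL. Of the 7 adipocyte markers tested 4 lay higher with BPA without overlap and at an unadjusted p under 0.05, and 1, LEP, lower (median 1.18). Adiponectin (ADIPOQ) was at 9.47, 14.7 and 7.99 TPM in control and 32.3, 40.4 and 26.2 TPM with BPA, a difference of 1.55 (SE 0.26). FABP4, PLIN1 and CIDEC, a fatty acid carrier and lipid droplet proteins, were at 1.18 (SE 0.39), 1.35 (SE 0.40) and 1.26 (SE 0.18). These adipocyte genes thus separated the groups as POSTN did, in the other direction. Within the BPA group most did not run against POSTN. FABP4 was at 124, 117 and 48.7 TPM and CIDEC at 6.84, 8.01 and 5.11 TPM with BPA. Both, like ADIPOQ and POSTN, had their lowest BPA value in BPA replicate 3. PLIN1, at 3.03, 5.99 and 8.03 TPM with BPA, was highest there. The 5 leukocyte markers analysed summed to 28.5 to 39.6 TPM in control and 31.2 to 52.1 TPM with BPA. The part of any of these markers in the members' values was not tested. The 3 of 6 chondrocyte markers analysed summed to at most 0.757 TPM in any library and the 6 endothelial markers to at most 0.806 TPM. The 3 of 6 epithelial markers analysed summed to at most 3.43 TPM and the 4 of 6 osteoblast markers analysed to at most 13.9 TPM. Of these, CLDN4 (epithelial) averaged 1.04 TPM, and RUNX2 and BGLAP (osteoblast) 2.21 and 7.69 TPM.

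Genes of like pattern were sought by the root mean square difference between centred log2 profiles over the 6 libraries. Nearest to POSTN among tested genes was CCL8, a monocyte chemokine, at 0.065. It was at 59.3, 45.02 and 57.8 TPM in control and 39.5, 32.3 and 24.4 TPM with BPA. RBM11, an RNA-binding protein, followed at 0.10, then EDN1 (endothelin 1, a vasoconstrictor peptide), C1QTNF3 (an adipokine) and IL33 (an alarmin cytokine) at 0.12 each. RBM11 lay at 1.77 to 4.26 TPM, EDN1 at 2.56 to 6.31 TPM and IL33 at 0.925 to 3.07 TPM, levels at which the 1 added before the log narrows a gene's range. C1QTNF3 had a level like that of POSTN, at 396, 363 and 405 TPM in control and 302, 272 and 226 TPM with BPA. All 5 lay lower with BPA without overlap, a likeness that the choice of a near profile fixes.

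**Figure D4:**
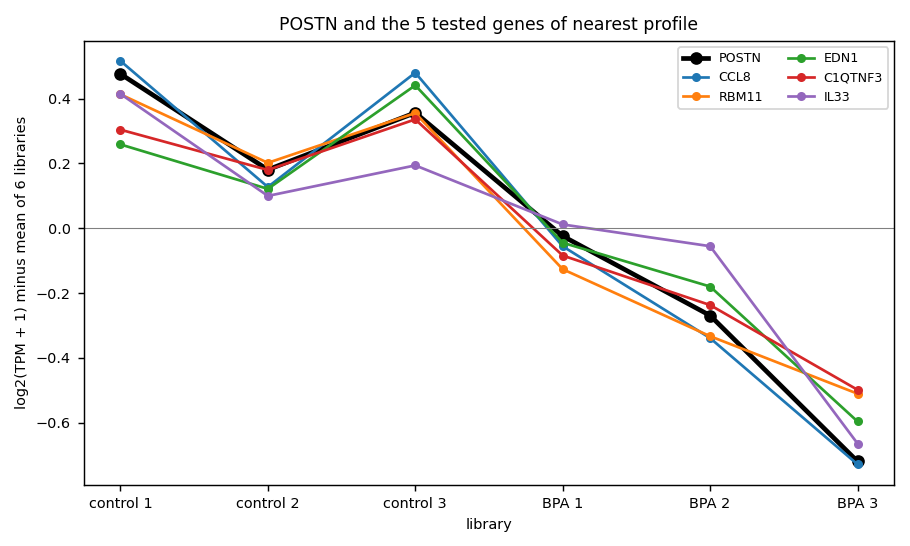
log2(TPM + 1) minus the gene's mean over the 6 libraries (vertical axis) in each library for POSTN (black) and the 5 tested genes of nearest profile. All 6 genes are above their mean in the control libraries and lowest in BPA replicate 3.

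No member was near POSTN by this measure, the closest being SPARC at 0.50. SPARC had the narrowest log2 range of the tested members, 0.42, and ran in the reverse order of POSTN within each group. Its place thus reflects a flat profile and not a likeness. Among the other tested members the nearest distances were smaller. TNC and THBS2 were each other's nearest member at 0.095, CCN1 and VCAN at 0.062, and FN1 was nearest to TNC at 0.12. Less near were THBS1 to VCAN at 0.16, SPARC to CCN1 at 0.17 and CCN2 to THBS2 at 0.19. The single tested gene nearest to THBS2 was ITGA11, a collagen-binding integrin subunit, at 0.037, and that nearest to both TNC and FN1 was FSCN1, the actin bundling protein fascin, at 0.056 and 0.10. For SPARC it was PROS1 (protein S, an anticoagulant) at 0.016, for THBS1 ALPK3 at 0.057, for CCN1 SOCS7 at 0.017, for CCN2 MIER2 at 0.019 and for VCAN LRWD1 at 0.039. Some of these genes were low: ALPK3 lay at 0.656 to 2.61 TPM, SOCS7 at 1.37 to 3.29 TPM and MIER2 at 2.80 to 11.5 TPM. The 1 added before the log narrows the range of such genes, so a small distance does not mean an equal fold range in TPM.

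Related genes were taken from lists of other matricellular proteins, receptors, signalling genes and matrix partners, which share some genes with one another. By limma 0 genes of any list passed in either direction, and the counts that follow are at an unadjusted p under 0.05 or are directions only. Among other matricellular genes 7 of 9 tested lay above control (median 0.09) and 0 had such a p. CCN3, a relative of CCN1 and CCN2, was at 232, 249 and 246 TPM in control and 253, 258 and 260.5 TPM with BPA, a narrow gap without overlap and a difference of 0.09 (SE 0.07). CCN4, another relative, was at 16.1, 18.01 and 17.8 TPM in control and 10.8, 13.1 and 19.3 TPM with BPA. Its BPA replicates 1 and 2 lay below and BPA replicate 3 above all controls, with a difference of -0.28 (SE 0.21), and of -0.50 without BPA replicate 3. FSTL1, a SPARC-related glycoprotein, overlapped at 1672 ± 45.3 TPM in control and 1693 ± 210 TPM with BPA. SPARCL1 (hevin) lay between 1.02 and 2.09 TPM, and SPP1 (osteopontin) at 0.107 to 0.273 TPM was not tested. FBLN1, which binds fibronectin, was at 35.7, 55.4 and 41.3 TPM in control and 30.4, 44.0 and 93.5 TPM with BPA, in the library order of FN1 within each group.

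Of the receptors 14 of 19 tested lay above control (median 0.11), and 1 was higher and 0 were lower at that p. That gene was CD36, a thrombospondin receptor that also takes up fatty acids. It was at 0.665, 1.04 and 0.561 TPM in control and 2.63, 2.68 and 1.13 TPM with BPA, without overlap and with a difference of 0.81 (SE 0.25). ITGA5, whose product pairs with that of ITGB1 as the fibronectin receptor, was at 431, 1252 and 717 TPM in control and 412, 849 and 2672 TPM with BPA. ITGB1 had the reverse extreme, at 1299, 1231 and 1291 TPM in control and 1379, 1205 and 1023 TPM with BPA. ITGA5 thus held BPA replicate 3 as its highest library and ITGB1 as its lowest, and both overlapped between groups. The periostin-binding integrin subunits overlapped too, with ITGAV at -0.02 without BPA replicate 3 and 0.03 (SE 0.09) with all libraries, ITGB3 at 0.11 (SE 0.16) and ITGB5 at 0.27 (SE 0.42). ITGA6, a laminin-binding subunit, was at 0.16 (SE 0.13) and overlapped. CD44, the hyaluronan receptor, was at -0.0029 (SE 0.20) and CD47 at -0.14 (SE 0.17).

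TGF-beta ligands, receptors and SMADs had 11 of 16 tested genes above control (median 0.23), and at that p 2 were higher and 1 was lower. TGFBR2, the ligand-binding receptor, was at 32.3, 30.9 and 32.4 TPM in control and 38.04, 38.4 and 36.8 TPM with BPA, a difference of 0.24 (SE 0.08) without overlap. TGFBR3, the co-receptor betaglycan, was the other higher gene at 0.35 (SE 0.11). TGFBR1, the signalling receptor, lay the other way at 45.6, 42.1 and 44.9 TPM in control and 41.7, 34.7 and 28.4 TPM with BPA, without overlap and with a difference of -0.35 (SE 0.15). INHBA, the activin A subunit, was the lower gene at -0.38 (SE 0.11). TGFB1 overlapped at 12.8, 23.2 and 14.9 TPM in control and 12.6, 18.5 and 49.99 TPM with BPA, TGFB2 had a difference of -0.03 (SE 0.16) and TGFB3 of 0.22 (SE 0.18).

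TGF-beta responsive genes had 11 of 15 above control (median 0.16), and at that p 1 was higher and 1 lower. The higher gene was ID1, a transcriptional inhibitor, at 0.26 (SE 0.09), and the lower was the cytokine IL11, at 1.86, 1.74 and 1.63 TPM in control and 1.003, 1.09 and 1.20 TPM with BPA. TAGLN (transgelin) overlapped at -0.12 (SE 0.11).

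YAP, TEAD and MRTF factors and targets had 17 of 19 above control (median 0.18), and at that p 0 were higher and 1 lower. The lower gene was F3 (tissue factor), at -0.40 (SE 0.10). ANKRD1, a target shared with the CCN genes, was at 7.97, 6.72 and 9.04 TPM in control and 8.91, 7.30 and 5.81 TPM with BPA, lowest in the library where CCN1 and CCN2 were highest. YAP1 was at 0.15 (SE 0.20), WWTR1 at 0.08 (SE 0.09) and LATS2, a kinase that restrains YAP, at 0.22 (SE 0.10) without overlap.

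Matrix partners and processing enzymes had 19 of 19 above control (median 0.38) and 0 at that p. BMP1, the procollagen protease that also acts with periostin, was at 36.9, 60.9 and 46.1 TPM in control and 29.9, 45.0 and 94.2 TPM with BPA. ADAMTS1, a protease of versican, was at 328, 508 and 362 TPM in control and 332, 422 and 941 TPM with BPA. Both genes overlapped between groups and were highest in BPA replicate 3, at differences of 0.10 (SE 0.43) and 0.38 (SE 0.41). ADAMTS5 was at 0.28 (SE 0.25) and MMP14 at 0.45 (SE 0.36), and the hyaluronan synthase HAS2, at 0.500 to 0.895 TPM, was not tested.

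Without BPA replicate 3 the directions of these lists turned while that of all genes did not. Matrix partners then had 5 of 19 above control (median -0.14), YAP, TEAD and MRTF genes 4 of 19 (median -0.04) and TGF-beta responsive genes 2 of 15 (median -0.31). TGF-beta ligands, receptors and SMADs had 4 of 16 (median -0.09), receptors 5 of 19 (median -0.08) and other matricellular genes 4 of 9 (median -0.12). Over all tested genes 7077 of 12277 lay above control then, against 6952 with all libraries. Without both BPA replicate 3 and control replicate 2 most lists turned back: matrix partners had 14 of 19 above control (median 0.11), YAP, TEAD and MRTF genes 14 of 19 (0.05), receptors 13 of 19 (0.02), TGF-beta ligands, receptors and SMADs 11 of 16 (0.10) and other matricellular genes 5 of 9 (0.06). Over all tested genes 7851 of 12277 lay above control in that setting (median 0.05), so shares such as 13 of 19 and 11 of 16 were near that of all genes. TGF-beta responsive genes still lay mostly below, with 6 of 15 above control (median -0.07), and the members had 1 of 9 (median -0.33). Without BPA replicate 3 alone the differences were 0.25 for TGFBR2, 1.07 for CD36, -0.46 for INHBA, -0.42 for IL11 and -0.34 for F3. Their signs could not turn there, since none of these genes overlapped between the groups with all libraries.

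**Figure D5:**
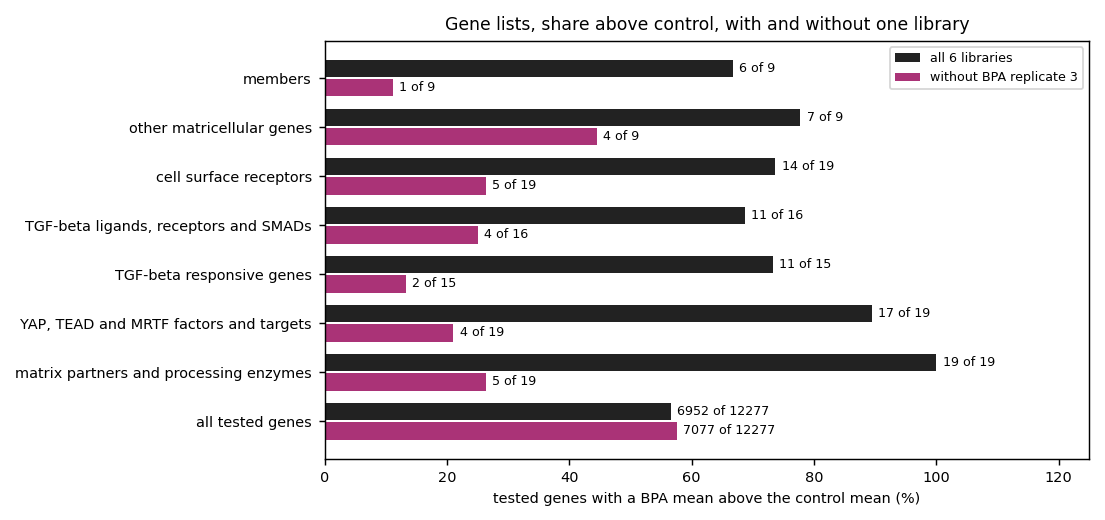
Percent of tested genes with a BPA mean above the control mean (horizontal axis) in the members, each related list and all tested genes, with all 6 libraries (black) and without BPA replicate 3 (purple). Bars are labelled with counts, and the members go from 6 of 9 to 1 of 9 while all tested genes stay at 6952 and 7077 of 12277.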

How the data were processed

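Messenger RNA of 6 libraries, 3 control and 3 BPA, was analysed, with groups and replicate numbers from the labels. Per the labels' protocols, RNA was extracted on columns and made into stranded mRNA libraries. The authors deposited log2 values for 23299 genes. Each column of deposited log2 values, taken out of the log and less a pseudocount of 1, summed to 1000000, so it was treated as log2(TPM + 1). For the aligner, counting tool, build and annotation the sources used here give no name, and no coordinates are printed. Of the names, 22346 matched symbols of the RefSeq gene table for UU_Cfam_GSD_1.0.

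Testing took the 12277 genes, 9 of the 10 members among them, whose mean log2(TPM + 1) reached 1. BPA was compared with control over all of them by limma 3.58.1 in R 4.3.3 (empirical Bayes with a trend, two-sided, Benjamini-Hochberg, threshold 0.05, no covariate). The fit was tested on simulated data with noise drawn independently for each gene and library. That check does not cover variation shared by many genes, such as the main axis here. The SE of a difference is limma's. The members, gene lists, markers and the rule for named genes were chosen with earlier results of these data known. The rule took all members, a fixed set of related genes, the 2 genes of smallest p per list, and for POSTN the 5 tested genes (for each other member the 1 gene) of nearest profile, passing over locus numbers. A gene of the fixed set is not reported here. Alternatives were other filters, pseudocounts and scalings, a replicate block, other variance models and leaving out each library.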

Additional observations from a re-analysis of the deposited data

How the results depend on the processing

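No gene passed by limma under the stricter filter, pseudocounts of 0.1 and 5, 3 other scalings, the replicate block (0 genes), a variance model with no trend or a robust one. Genes with an unadjusted p under 0.05 numbered 439, and 264 with the replicate block. Without a filter 6 genes passed, 0 of them in the lists used here. Leaving out libraries gave 0 to 2 genes, 1 to 3 members without overlap and a median difference of the members from -0.46 to 0.37, where the upper counts, 2 genes and 3 members, are without both BPA replicate 3 and control replicate 2. Without BPA replicate 3 alone 1 gene passed. The count of members without overlap was 2 without control replicate 2 or without BPA replicate 3, where 22.1% and 21.1% of all tested genes did not overlap, and 34.6% did not without both. The members' share of TPM, BPA minus control, was 0.15 percentage points and from -0.20 to 0.36 when a library was left out. POSTN lay between -0.76 and -0.67 over the scalings, pseudocounts and filters. Whether the replicate numbers pair the libraries was not settled. Deviations from the group mean correlated at 0.72, -0.44 and -0.23 for numbers 1, 2 and 3. With 3 libraries per group these values depend on one another, so they cannot decide it. Depth is unknown, so TGFBI and other genes under 1 TPM are given as values alone.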
